A study of Homo sapiens with 8 samples.

Results

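The protein-coding genes on either side of SLINKY on chromosome 7q22 were examined in A498 and 786-O cells, with SLINKY present and after SLINKY knockdown. The genes come from a fixed list of neighbours of the locus and are, in chromosomal order, SYPL1, NAMPT and CCDC71L on the lower-coordinate side and PRKAR2B, HBP1, COG5, DUS4L, BCAP29, CBLL1 and DLD on the higher-coordinate side. The list does not hold every nearby coding gene: PIK3CG, GPR22, SLC26A4, SLC26A3 and CDHR3, with means of at most 0.0554 FPKM (sequenced fragments divided by transcript length and by library depth), and ATXN7L1 lie within 1 Mb and are not on it, while DLD lies beyond 1 Mb. These 10 neighbours are part of 22678 genes with RefSeq entries. Of the 10 neighbours, 9 averaged at least 1 FPKM over the libraries and are among 11367 genes tested. PRKAR2B, with a mean of 0.545 FPKM, did not pass this minimum and is described from its values and from a fit without the minimum.

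SLINKY is a long intergenic noncoding RNA (lincRNA). Some lincRNAs act in cis, on the transcription of genes close to them on the same chromosome, and others act in trans, on genes or proteins elsewhere in the cell. A cis effect is looked for by measuring the neighbouring genes after the lincRNA is depleted. An siRNA lowers the RNA itself and leaves transcription across the locus in place, so that such an experiment reads out the RNA and not the act of transcribing it.

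A498 and 786-O are established lines of clear cell renal cell carcinoma (ccRCC), and both lack functional VHL, the tumor suppressor most often lost in this cancer. Each line contributed 4 libraries: 2 from cells given non-targeting control (NTC) siRNA, 1 with SLINKY siRNA #1 and 1 with siRNA #2, for 8 libraries in all. The siRNAs were transfected with a lipid reagent at 50 nM, and the labels give 16 hrs of transfection, while the methods of the study name a later time for RNA isolation. The labels describe every siRNA as a pool, whereas the methods of the study describe siRNA #1 and #2 as single siRNAs of separate design, and the sources used here do not settle which holds. A498 was grown in DMEM and 786-O in RPMI-1640, so the effects of cell line and culture medium cannot be told apart, and each line is a single model of the disease. The knockdown group of a line consisted of 2 different siRNAs with 1 library each, and both were set against the same NTC libraries. Nothing in the labels states that libraries of a group came from separate cultures, so the p-values measure the spread between these libraries, which may be technical.

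Depth was estimated at 25135383 to 64706839 mapped reads per library. Of 9 markers of ccRCC and epithelial cells, 8 were matched and 7 averaged at least 1 FPKM, with a summed level of 3174 to 3309 FPKM in A498 and 3700 to 3944 FPKM in 786-O. CA9, a hypoxia-inducible carbonic anhydrase typical of ccRCC, did not exceed 0.559 FPKM. Leukocyte markers reached this mean in 0 of 4 genes, with PTPRC and CD3E at 0 in every library, and endothelial markers in 0 of 3 genes. Of 4 fibroblast markers, COL1A1 alone reached it, and the fibroblast list summed to 2.94 to 3.45 FPKM in A498 and 0.753 to 0.863 FPKM in 786-O. SLINKY stood at 14.6 and 16.1 FPKM in the A498 NTC libraries and at 1.45 and 1.39 FPKM in those of 786-O, and all siRNA libraries were lower than the NTC libraries of their line (1.64 and 3.01 FPKM in A498 with siRNA #1 and #2, 0.0569 and 0.594 FPKM in 786-O). The value of 0.0569 FPKM is uncertain: its Cufflinks interval, 0.0391 to 0.0747 FPKM, would correspond to 40.9 reads, more than the 11.0 and 17.9 reads that the same calculation gives for the higher 786-O NTC values, and the reads of SLINKY are divided with assembled entries that overlap it. The mean log2 change of SLINKY was -2.47, with a two-sided exact permutation p of 0.0556, the smallest that the 36 arrangements of libraries within lines can give, and without the 786-O siRNA #1 library the change was -1.93, a value chosen after the data were seen.

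Coordinates are those of the deposited tables, which use hg19 (GRCh37). SLINKY occupied chromosome 7 from 106415457 to 106436010. On the lower side, CCDC71L (106297211 to 106301634) ended 113.8 kb from SLINKY, NAMPT (105888732 to 105925638) 489.8 kb away and SYPL1 (105730814 to 105753093) 662.4 kb away, and all 3 genes lie on the minus strand. On the higher side, PRKAR2B (106685178 to 106802256) began 249.2 kb from SLINKY, HBP1 (106809406 to 106842974) at 373.4 kb and COG5 (106842189 to 107204959) at 406.2 kb. They were followed by DUS4L (107204402 to 107218968) at 768.4 kb, BCAP29 (107220422 to 107263762) at 784.4 kb, CBLL1 (107384279 to 107402083) at 948.3 kb and DLD (107531586 to 107561643) at 1095.6 kb. COG5 is on the minus strand and the other 6 genes of this side are on the plus strand.

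The spacing of the higher side is uneven. PRKAR2B and HBP1 were 7149 bp apart and DUS4L and BCAP29 1453 bp apart. COG5 overlapped HBP1 at one end and DUS4L, by 558 bp, at the other, in each case on opposite strands. The sources used here do not state that reads were assigned by strand, so reads within these overlaps cannot be told apart and the values of HBP1, COG5 and DUS4L carry that uncertainty. The coding gene nearest to SLINKY was PIK3CG, which encodes the catalytic subunit gamma of phosphoinositide 3-kinase, at 69.9 kb (106505924 to 106547592), and its highest value was 0.0231 FPKM, too low for a comparison.

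The 150 bases before the annotated start are printed for the listed neighbour closest to SLINKY on each side, CCDC71L and PRKAR2B, because both were higher in A498 than in 786-O, as described in the paragraphs that follow. The sequences were read from GRCh37 on the strand of each gene, upstream of the outermost start in GENCODE annotation lifted to this build, and overlap no annotated exon. Capitals mark matches on either strand to a CCAAT box, to the GC box GGGCGG or to the E-box CACGTG, and a match on the opposite strand appears as its reverse complement. The TATA box, spelled TATAAA, was searched as well, and none of the 4 motifs contains another.
CCDC71L, chr7:106301635-106301784, minus strand: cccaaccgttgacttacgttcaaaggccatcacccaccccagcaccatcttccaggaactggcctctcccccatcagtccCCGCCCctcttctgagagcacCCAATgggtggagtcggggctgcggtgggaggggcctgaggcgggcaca
PRKAR2B, chr7:106685000-106685149, plus strand: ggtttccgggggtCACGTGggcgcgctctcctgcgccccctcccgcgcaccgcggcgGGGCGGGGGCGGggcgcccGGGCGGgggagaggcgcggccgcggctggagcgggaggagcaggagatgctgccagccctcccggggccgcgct

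The window before CCDC71L had a GC content of 64.7% with 1 CCAAT box and 1 GC box match, and that before PRKAR2B had 83.3% with 3 GC box matches, of which the first 2 adjoin, and 1 E-box match. In 35116 RefSeq windows of 150 bases before gene starts (GRCh38), the TATA box was found in 6.71%, the CCAAT box in 23.5%, the GC box in 36.8% and the E-box in 4.57%. These matches describe letters in a window and not binding.

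All 10 neighbours were measured in both lines at widely different levels, on a scale (FPKM) that takes transcript length into account. NAMPT and SYPL1 were the highest in A498, and SYPL1 and DLD the highest in 786-O. SYPL1, NAMPT and DLD were within the top 9.84%, 11.4% and 20.1% of tested genes by mean level. The other 6 tested neighbours lay between 7.15 and 12.3 FPKM on average, near the middle of the tested genes.

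**Figure D1:**
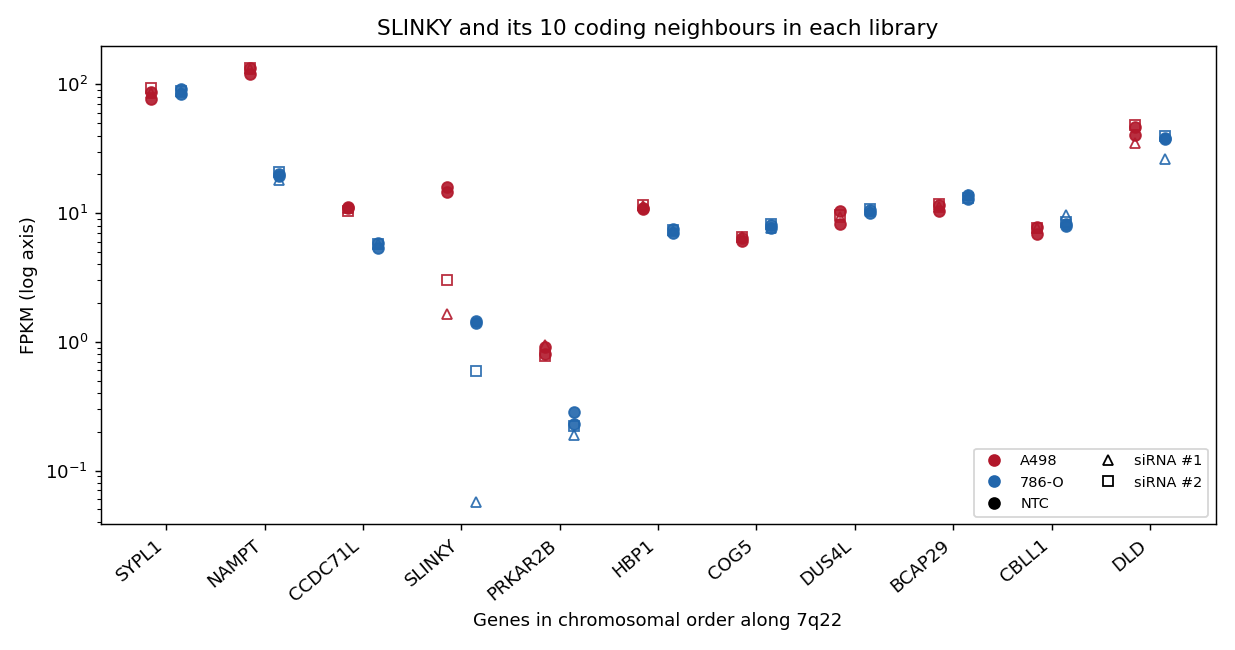
Level of SLINKY and its 10 coding neighbours in each of the 8 libraries, in FPKM on a log axis, with genes in chromosomal order, filled points for NTC, triangles for siRNA #1 and squares for siRNA #2. SLINKY spans 0.0569 to 16.1 FPKM, while the knockdown and NTC points of its neighbours lie close together within each line and NAMPT, CCDC71L, PRKAR2B and HBP1 are higher in A498.

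The comparison of A498 with 786-O asked which neighbours follow the line with more SLINKY. Among the 9 tested neighbours, 3 were higher in A498 (NAMPT, CCDC71L and HBP1), 3 were lower (COG5, BCAP29 and CBLL1) and 3 did not pass the test (SYPL1, DUS4L and DLD), by limma with Benjamini-Hochberg adjustment at 0.05 over all tested genes. The lines differ throughout the transcriptome: 80.5% of tested genes passed, 39.1% higher and 41.4% lower in A498, so that 6 of 9 is not above the background. The libraries of the lines did not overlap for the same 6 genes, against 75.5% of tested genes. The median log2 difference of the neighbours was -0.04, beside -0.02 over all tested genes. In these bulk libraries, fewer cells with a transcript and less of it per cell cannot be told apart.

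NAMPT, the rate-limiting enzyme of NAD salvage from nicotinamide, differed most. Its level was 121 and 135 FPKM in A498 with NTC siRNA, 133 FPKM after siRNA #1 and 134 FPKM after siRNA #2, and 20.2, 19.6, 18.1 and 21.0 FPKM in the 786-O libraries in the same order. Every A498 library was more than 100 FPKM and no 786-O library more than 21.0 FPKM, whichever siRNA had been given. The log2 difference was 2.72 (SE 0.06, 95% interval 2.59 to 2.86, adjusted p from limma 8.59e-09), a ratio of 6.61. A larger difference in either direction was seen in 805 of the tested genes, or 7.08%.

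CCDC71L, a coiled-coil protein whose function is little known, is the listed neighbour closest to SLINKY. It stood at 11.0, 11.2, 10.9 and 10.3 FPKM in A498 (NTC, NTC, siRNA #1, siRNA #2) and at 5.40, 5.91, 5.76 and 5.76 FPKM in 786-O. The lowest A498 library was well over the highest 786-O library. The log2 difference was 0.92 (SE 0.04, 95% interval 0.82 to 1.02, adjusted p from limma 4.45e-07), and 28.0% of tested genes differed more. Cufflinks gave this entry the status LOWDATA in all 8 libraries, which marks a locus it regarded as too shallow or too complex for a full estimate. The number of entries with this status was 3190 in every library and did not vary with the estimated depth. The interval of CCDC71L reached 0 in each library (0 to 18.1 FPKM in the first A498 NTC library).

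PRKAR2B, a regulatory subunit of cAMP-dependent protein kinase (PKA), is the listed neighbour closest on the other side. It was at 0.805, 0.907, 0.941 and 0.782 FPKM in A498 and at 0.231, 0.286, 0.190 and 0.221 FPKM in 786-O, in the order NTC, NTC, siRNA #1 and siRNA #2. The values rest on 148, 115, 115 and 68 reads in A498 and on 29, 64, 24 and 36 reads in 786-O, as recovered from the interval that Cufflinks reports. All A498 libraries were above all 786-O libraries. In the limma fit without a minimum level, where 64.6% of genes passed, the log2 difference was 1.53 (SE 0.10, 95% interval 1.29 to 1.78, adjusted p 2.4e-05).

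HBP1, an HMG-box transcription repressor that restrains cell cycle entry, was at 11.0, 10.8, 11.4 and 11.5 FPKM in A498 and at 7.05, 7.53, 7.25 and 7.41 FPKM in 786-O. The lines did not overlap, and the log2 difference was 0.61 (SE 0.03, 95% interval 0.53 to 0.69, adjusted p from limma 1.38e-06), with 43.3% of tested genes differing more. COG5, a subunit of the conserved oligomeric Golgi complex that tethers vesicles within the Golgi, was at 6.12, 6.41, 6.55 and 6.58 FPKM in A498 and at 7.62, 8.02, 7.65 and 8.26 FPKM in 786-O. Its log2 difference was -0.29 (SE 0.04, 95% interval -0.39 to -0.20, adjusted p from limma 0.000211). When the highest RefSeq entry of each gene replaced the sum, this call was lost (log2 difference -0.30, adjusted p from limma 0.554).

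Further out, BCAP29, an endoplasmic reticulum membrane protein that takes part in the export of other membrane proteins, was at 10.3, 11.5, 11.3 and 11.9 FPKM in A498 and at 13.8, 12.9, 13.8 and 13.2 FPKM in 786-O. Every A498 library was below every 786-O library, with a log2 difference of -0.26 (SE 0.05, adjusted p from limma 0.00139). CBLL1, also called HAKAI, is a RING-type ubiquitin ligase and a component of the m6A RNA methyltransferase complex. It stood at 6.85, 7.80, 7.64 and 7.71 FPKM in A498 and at 8.17, 7.91, 9.70 and 8.61 FPKM in 786-O. The lines did not overlap, but the gap between 7.80 and 7.91 FPKM was narrow. The log2 difference was -0.19 (SE 0.06, adjusted p from limma 0.0163), and it missed the threshold without the first A498 NTC library (-0.17, adjusted p 0.0517), without the A498 siRNA #1 library (-0.18, adjusted p 0.0517), in the NTC libraries alone (-0.14, adjusted p 0.246) and in the knockdown libraries alone (-0.25, adjusted p 0.062).

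DUS4L, a dihydrouridine synthase that modifies tRNA, overlapped between the lines, with 8.26, 10.4, 9.27 and 9.71 FPKM in A498 and 10.5, 10.0, 10.3 and 10.7 FPKM in 786-O. Its log2 difference of -0.15 (95% interval -0.31 to 0.02) had an adjusted p from limma of 0.0851, and without the second A498 NTC library it passed (-0.21, adjusted p 0.00763). SYPL1, a synaptophysin-like membrane protein of transport vesicles outside the nervous system, was at 77.2, 87.9, 86.3 and 94.1 FPKM in A498 and at 91.7, 85.0, 88.1 and 89.0 FPKM in 786-O. The 786-O values fell inside the range of the A498 values, and the log2 difference was -0.04 (95% interval -0.17 to 0.10, adjusted p from limma 0.569). DLD, the dihydrolipoamide dehydrogenase shared by the mitochondrial 2-oxoacid dehydrogenase complexes and the glycine cleavage system, was at 40.5, 46.5, 35.3 and 48.7 FPKM in A498 and at 38.6, 38.0, 26.5 and 39.6 FPKM in 786-O. The lines overlapped through the siRNA #1 library of A498, and the log2 difference was 0.27 (95% interval -0.08 to 0.61, adjusted p from limma 0.131).

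**Figure D2:**
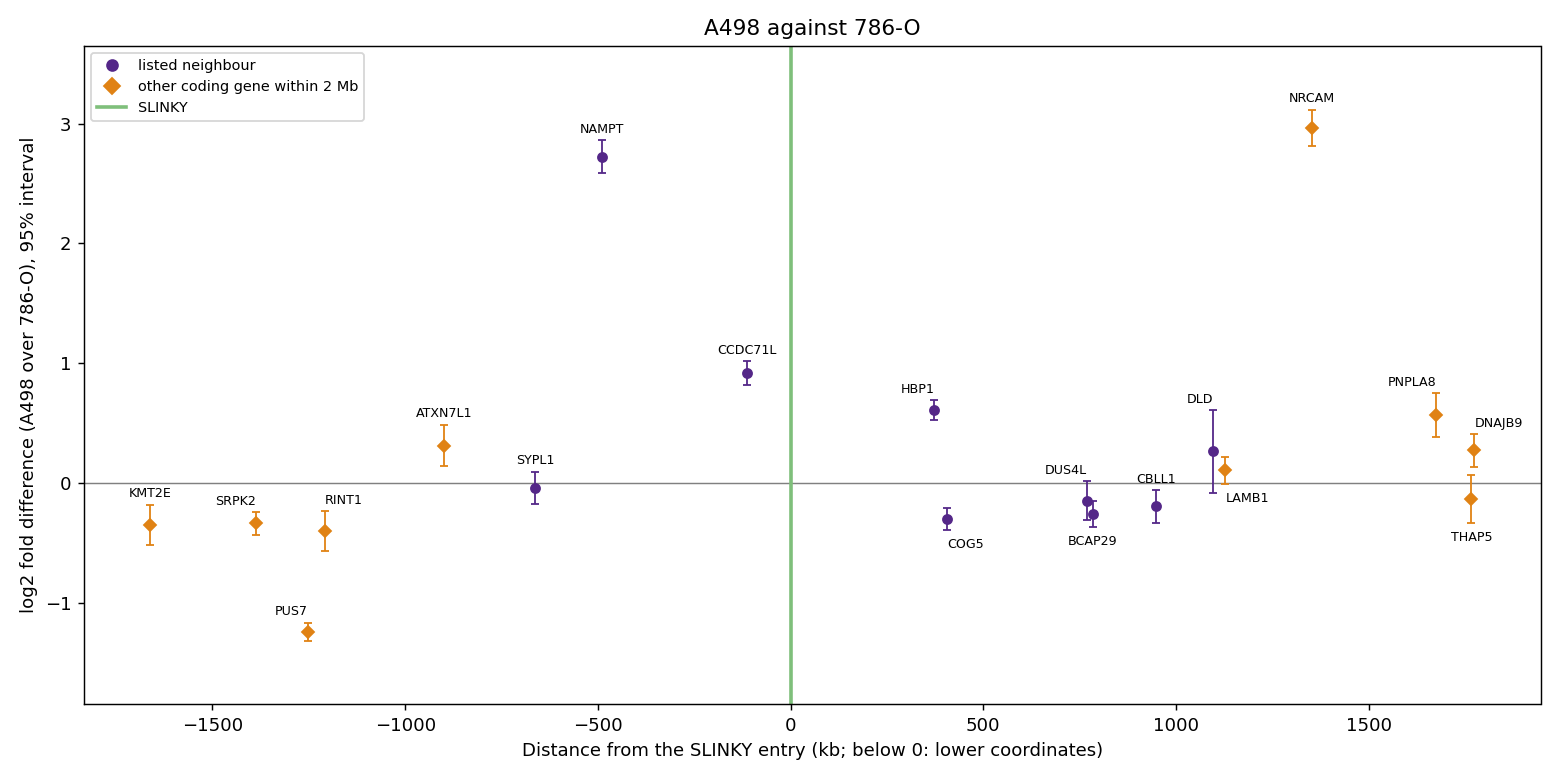
Difference between A498 and 786-O on the log2 scale against the distance from SLINKY in kb, for the 9 tested neighbours (circles) and the other tested coding genes within 2 Mb (diamonds), with 95% intervals from limma. NAMPT (2.72) and NRCAM (2.96) stand far above 0 and PUS7 (-1.24) far below, while the other genes apart from CCDC71L (0.92) and HBP1 (0.61) lie between -0.40 and 0.57.

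The comparison of SLINKY knockdown with NTC asked whether depletion of the RNA altered the genes around it. Called neighbours numbered 0 of 9 in A498, 0 of 9 in 786-O, 0 of 9 over both lines and 0 of 9 in the interaction of knockdown and line, by limma. The background was low as well: 0.176% of tested genes passed in A498, 0.141% in 786-O, 0.0088% over both lines and 0.141% in the interaction, so that counts of 0 are near the background. At an unadjusted p under 0.05 the counts of neighbours were again 0 of 9 in all 4 fits, beside 4.30%, 4.21%, 11.5% and 1.93% of tested genes. No other tool was run on these FPKM values.

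The intervals give a range for the change in the mean of both siRNAs. They are drawn from the spread between these libraries, which may be technical. Over both lines, the log2 change was -0.02 for CCDC71L (95% interval -0.12 to 0.08), 0.02 for NAMPT (-0.12 to 0.15) and 0.07 for SYPL1 (-0.07 to 0.20). On the other side of SLINKY it was 0.04 for HBP1 (-0.04 to 0.12), 0.05 for COG5 (-0.05 to 0.14), 0.04 for DUS4L (-0.13 to 0.20), 0.05 for BCAP29 (-0.06 to 0.16) and 0.13 for CBLL1 (-0.01 to 0.26). For these 8 genes the interval stayed within 0.32 of 0, the log2 value of the fold change that the study used as its threshold. DLD had the widest interval, -0.15 (-0.50 to 0.19), which reaches past this value on the lower side. Within a line, with 2 libraries against 2, the intervals were wider, and besides DLD they passed 0.32 for SYPL1 (-0.13 to 0.39), DUS4L (-0.35 to 0.42) and CBLL1 (-0.19 to 0.324) in A498 and for CBLL1 (-0.06 to 0.42) in 786-O. The adjusted p-values from limma in the fit over both lines ranged from 0.46 for CBLL1 to 0.924 for NAMPT.

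The median log2 change of the 9 neighbours was 0.04 over both lines, beside 0.01 for all tested genes, and 7 of 9 values were above 0. The 95% interval of each of the 9 included 0, and the share of all tested genes above 0 was not counted. Within the lines the medians were 0.07 in A498 and 0.01 in 786-O, beside 0.01 and 0.01 for all tested genes. In the limma fit without a minimum level, PRKAR2B changed by -0.11 on the log2 scale over both lines (95% interval -0.36 to 0.14, adjusted p 0.72). In 786-O its siRNA libraries, at 0.190 and 0.221 FPKM, were both under the NTC libraries, at 0.231 and 0.286 FPKM, and in A498 the siRNA libraries lay on either side of the NTC libraries. With 24 to 64 reads in a 786-O library, a small change in PRKAR2B was not detectable at this depth.

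**Figure D3:**
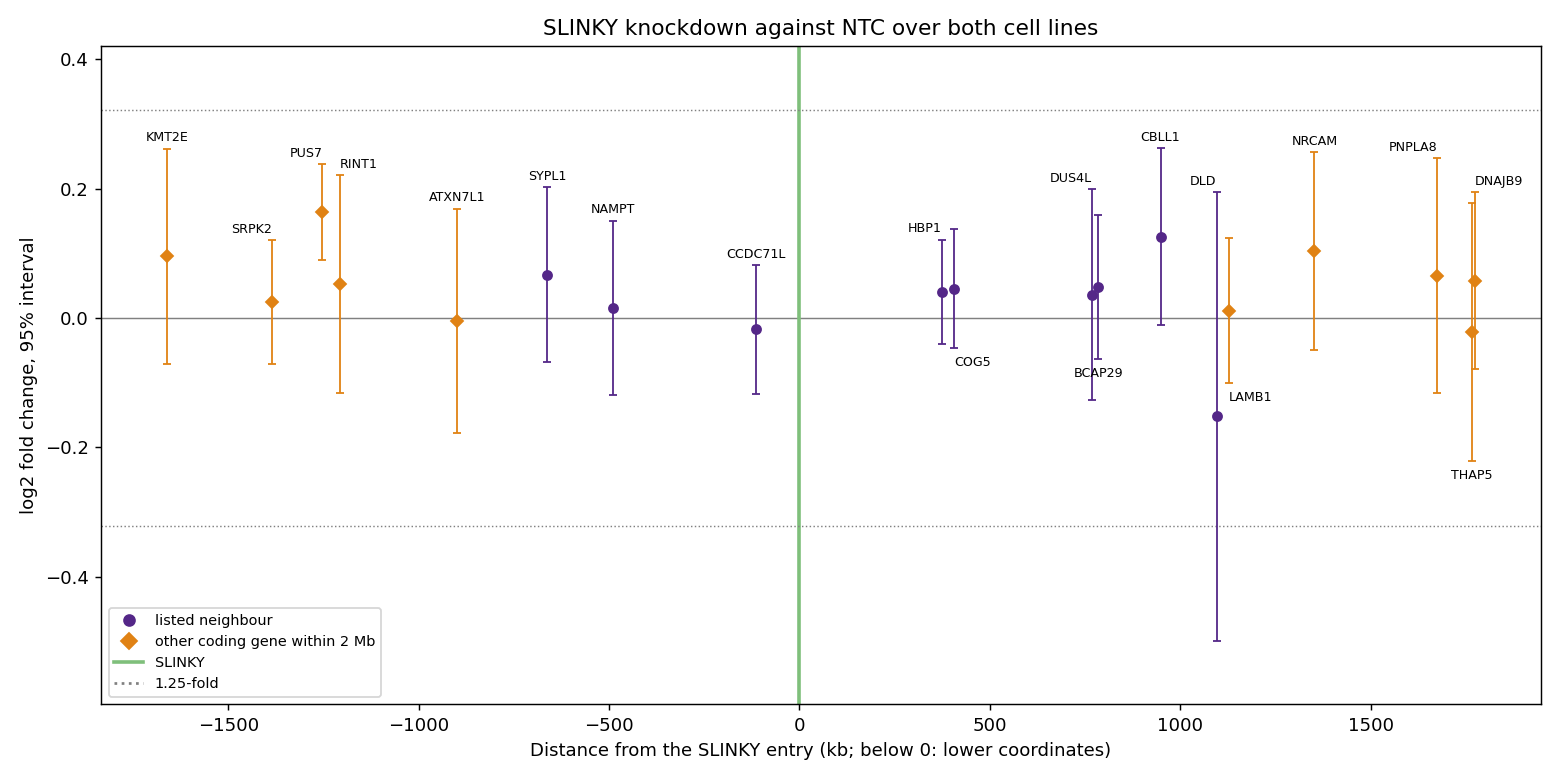
Log2 change after SLINKY knockdown over both cell lines against the distance from SLINKY in kb, with 95% intervals from limma for the 9 tested neighbours (circles) and the other tested coding genes within 2 Mb (diamonds). The dotted lines mark a change of 0.32 in either direction, all points lie between -0.15 (DLD) and 0.16 (PUS7), and the DLD interval alone crosses a dotted line.

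Knockdown and NTC libraries did not overlap for 3 of 9 tested neighbours in A498, where HBP1 and COG5 were higher and CCDC71L lower with both siRNAs, beside 36.7% of tested genes. In 786-O this held for CBLL1 alone, which was higher with both siRNAs, beside 32.6% of tested genes. For 0 of 9 neighbours did it hold in both lines in the same direction, beside 11.5% of tested genes. These shares are at or below the background.

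Each siRNA was also compared on its own, as a log2 ratio to the averaged NTC libraries. With 1 library per siRNA and line this is a description without a test, and the ratios of a line share their NTC libraries. Past 0.32 in either direction were 0 of 9 tested neighbours for siRNA #1 and 0 of 9 for siRNA #2 in A498, beside 5.57% and 7.41% of tested genes. In 786-O the counts were 1 of 9 for siRNA #1 and 0 of 9 for siRNA #2, beside 7.54% and 5.77%. The 1 gene was DLD with siRNA #1, at a log2 ratio of -0.53. The other ratios of tested neighbours lay between -0.30, for DLD with siRNA #1 in A498, and 0.27, for CBLL1 with siRNA #1 in 786-O. PRKAR2B with siRNA #1 in 786-O was at -0.31, just inside the threshold.

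**Figure D4:**
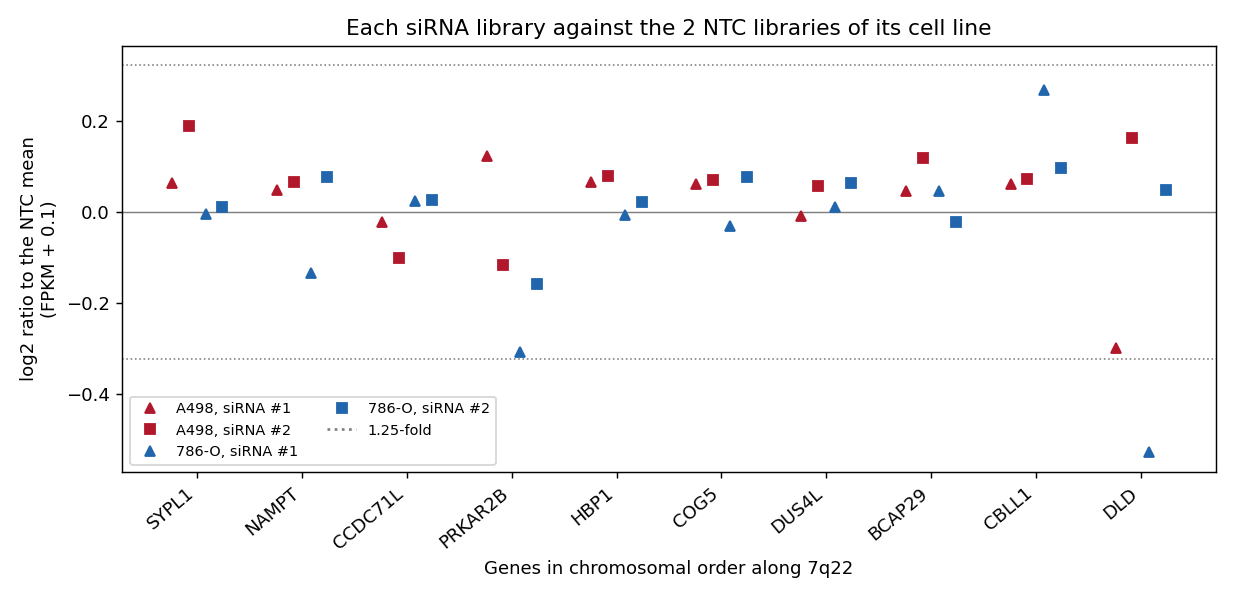
Log2 ratio of each siRNA library to the average of the 2 NTC libraries from the same line, after adding 0.1 FPKM, for the 10 neighbours in chromosomal order. All points but DLD with siRNA #1 in 786-O (-0.53) lie within the dotted lines at 0.32 in either direction, and DLD is below 0 with siRNA #1 and above 0 with siRNA #2 in both lines.

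In both lines, DLD lay on opposite sides of the NTC libraries with siRNA #1 and siRNA #2, each read from 1 library per line. With siRNA #1 it was at 35.3 FPKM in A498, under the NTC libraries at 40.5 and 46.5 FPKM, and at 26.5 FPKM in 786-O, under the NTC libraries at 38.6 and 38.0 FPKM. With siRNA #2 it was at 48.7 FPKM in A498 and 39.6 FPKM in 786-O, above both NTC libraries of each line. These values rest on 3278 to 8303 reads per library, the fewest in 786-O with siRNA #1.

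A limma fit with each siRNA as a term over both lines, chosen after the data were seen, called 0 of 9 neighbours for siRNA #1, for siRNA #2 and for their difference, beside 0.0704%, 0.0352% and 0.0528% of tested genes. For DLD it gave a log2 change of -0.41 with siRNA #1 (SE 0.07, 95% interval -0.59 to -0.23, unadjusted p 0.00129, adjusted p 0.18) and 0.11 with siRNA #2 (95% interval -0.07 to 0.29, adjusted p 0.559). The difference between the siRNAs was -0.52 (95% interval -0.73 to -0.31, adjusted p from limma 0.141). DLD was under the NTC libraries with siRNA #1 and over them with siRNA #2, and the adjusted p-values missed the threshold. SLINKY was below the NTC libraries with both siRNAs, at 1.64 and 3.01 FPKM in A498 with siRNA #1 and #2. In 786-O it was at 0.0569 FPKM, the uncertain value, and 0.594 FPKM. Whether the DLD values relate to the level of SLINKY was not tested.

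Several neighbours have more than 1 RefSeq entry, and Cufflinks divides the reads of a locus among them. Of 12 entries of the neighbours that averaged at least 1 FPKM, limma called 0 for knockdown over both lines, beside 0.00674% of 14839 entries tested. The lowest adjusted p, 0.629, was that of NM_024814, the main CBLL1 entry, at a log2 change of 0.23 (95% interval 0.07 to 0.39). The other CBLL1 entry, NR_024199, was at 0.260, 0.752, 1.79e-05 and 3.02e-05 FPKM in A498 (NTC, NTC, siRNA #1, siRNA #2). In 786-O it was at 1.14, 0.214, 1.68e-05 and 0.292 FPKM in the same order. The summed CBLL1 level changed by 0.13 (95% interval -0.01 to 0.26). Between the lines, 5 of 12 entries passed, those of NAMPT and CCDC71L and the main entries of HBP1, BCAP29 and DUS4L, beside 65.0% of entries tested.

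COG5 shows how the division of reads bears on these values. Entry NM_006348 was at 3.77, 2.52, 5.75 and 4.28 FPKM in A498 and at 6.00, 7.46, 2.08 and 5.89 FPKM in 786-O, in the order NTC, NTC, siRNA #1 and siRNA #2. Entry NM_181733 was at 2.25, 3.80, 0.746 and 2.18 FPKM in A498 and at 1.53, 0.462, 5.47 and 2.21 FPKM in 786-O. The entries moved in opposite directions, in siRNA #1 libraries most of all and there with opposite sign in the 2 lines, while their sum stayed between 6.12 and 8.26 FPKM. The share of NM_006348 in the COG5 sum ranged from 27.2% to 93.0%. The supplement of the study lists COG5 as up-regulated past its fold threshold with both siRNAs in each line. Here the log2 ratios of the COG5 sum to NTC were 0.06 and 0.07 in A498 with siRNA #1 and #2. In 786-O they were -0.03 and 0.08, all inside that threshold. The study lists transcripts and the values here are sums over entries, and the reason for the difference was not tested. For HBP1, entry NM_012257 was at 1.89 and 1.83 FPKM in the A498 NTC libraries and at 0.538 and 0.383 FPKM with siRNA #1 and #2. Its Cufflinks interval reached 0 in the first A498 NTC and the A498 siRNA #1 library, and in 786-O the entry did not exceed 0.526 FPKM. The main entry, NM_001244262, went the other way in A498, from 9.15 and 8.99 FPKM to 10.9 and 11.2 FPKM. The HBP1 sum was at 11.0, 10.8, 11.4 and 11.5 FPKM in these A498 libraries.

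**Figure D5:**
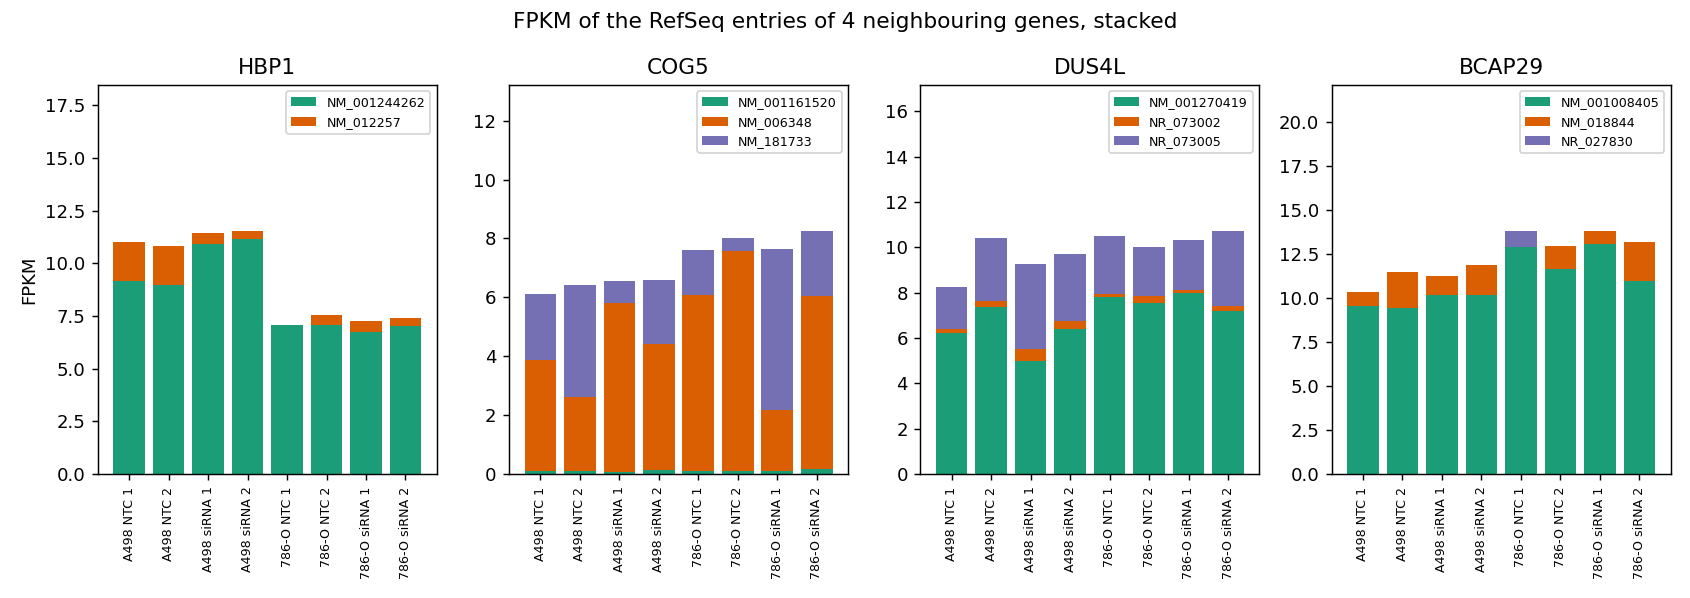
FPKM of the RefSeq entries of HBP1, COG5, DUS4L and BCAP29 in each library, stacked so that the bar height is the gene's summed level. The height of the COG5 bars stays between 6.12 and 8.26 FPKM while the share of NM_006348 ranges from 27.2% to 93.0%.

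The genes within 2 Mb of SLINKY numbered 27, of which 19 were tested, the 9 neighbours among them. Over both lines limma called 0 of the 19 for knockdown, beside 0.0088% of tested genes. The median log2 change was 0.05, and within 1 Mb it was 0.04 over 9 genes. PUS7, a pseudouridine synthase, was the only 1 of the 19 with an unadjusted p under 0.05 over both lines, beside 11.5% of tested genes. Its log2 change was 0.16 (95% interval 0.09 to 0.24, p from limma 0.00113, adjusted p 0.316). Between the lines 14 of 19 passed, 7 higher and 7 lower in A498, beside 80.5% of tested genes, so that this count is not above the background. Outside the listed neighbours, NRCAM, a neuronal cell adhesion molecule, was higher in A498 by 2.96, PNPLA8, a phospholipase, by 0.57, ATXN7L1 by 0.31 and DNAJB9, an endoplasmic reticulum co-chaperone, by 0.27 on the log2 scale. PUS7 (-1.24), RINT1 (-0.40), a vesicle tethering factor, KMT2E (-0.34), a chromatin regulator, and SRPK2 (-0.33), a kinase of splicing factors, were lower, and LAMB1 (0.11) and THAP5 (-0.13) did not pass.

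Between SYPL1 and DLD the tables list 16 noncoding entries, and 3 of these averaged 1 FPKM or more: SLINKY, an assembled transcript inside SLINKY, and AC002467.7, which overlaps the start of CBLL1. AC002467.7 was at 12.9, 12.6, 12.3 and 10.6 FPKM in A498 and at 8.93, 9.93, 9.87 and 9.02 FPKM in 786-O. It was higher in every A498 library than in any 786-O library, whereas CBLL1 was lower. Reads where the genes overlap cannot be told apart without strand.

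The neighbours were next read beside the genes they work with. In knockdown over both lines, limma called 0 genes in each of 8 lists: NAD synthesis and use (11 tested of 14), the COG complex (8 of 8), dihydrouridine synthases (4 of 4), PKA subunits (4 of 6), 2-oxoacid dehydrogenases with glycine cleavage (10 of 13), the m6A writer complex (8 of 8), the BAP31 family (2 of 2) and the synaptophysin family (1 of 4). The median log2 changes were, in that order, -0.03, 0.01, -0.06, 0.03, -0.03, 0.02, 0.01 and 0.07, beside 0.01 for all tested genes. The share of all tested genes called in this fit was 0.0088%, so that counts of 0 are near the background.

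Between the lines, the list of NAD genes held 4 that were higher in A498 and 6 that were lower, beside 80.5% of all tested genes that passed. The median log2 difference of the list was -0.23 beside -0.02 for all tested genes. The 4 higher genes were NAMPT, QPRT (4.89), which converts quinolinate late in de novo synthesis, NAPRT (0.97), which converts nicotinic acid, and NMRK1 (0.23), the nicotinamide riboside kinase. As background, each of them makes a mononucleotide precursor of NAD. Lower were NMNAT1 (-1.54), the nuclear enzyme that turns the mononucleotides into dinucleotides, the NAD kinases NADK2 (-1.31) and NADK (-0.72), NNMT (-0.79), which methylates nicotinamide, and the NAD consumers SIRT1 (-0.29) and PARP1 (-0.23). NMNAT3, below the minimum level and not tested, was at 0.273 to 0.458 FPKM in A498 and at most 0.0433 FPKM in 786-O, the opposite order to that of NMNAT1. QPRT was at 189 to 236 FPKM in A498 and 6.30 to 7.51 FPKM in 786-O.

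In the COG complex, COG1 (0.50), COG2 (0.40), COG8 (0.39) and COG7 (0.30) were higher in A498, COG3, COG4 and COG6 did not pass, and COG5 was the 1 subunit that was lower. The median over the complex was 0.23. Among dihydrouridine synthases 3 of 4 were lower in A498, DUS2 (-0.48), DUS1L (-0.45) and DUS3L (-0.25), and DUS4L did not pass. Of PKA subunits, the regulatory PRKAR1B (0.95) and PRKAR1A (0.40) were higher and the catalytic PRKACA (-0.28) and PRKACB (-0.28) lower, and PRKAR2A, the paralog of PRKAR2B, was at 0.337 to 0.426 FPKM in A498 and 1.27 to 1.67 FPKM in 786-O, the opposite order to that of PRKAR2B.

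Among the partners of DLD, 3 genes were higher in A498 and 6 lower. OGDH (1.00), the E1 subunit of the 2-oxoglutarate dehydrogenase complex, PDHX (0.54) and DLST (0.17) were higher, and GCSH (-1.16) of glycine cleavage, the pyruvate dehydrogenase subunits PDHA1 (-1.15), PDHB (-0.55) and DLAT (-0.50), and BCKDHB (-0.62) and BCKDHA (-0.23) of the branched-chain complex were lower. DLD itself did not pass. In the m6A writer complex, RBM15 (1.12) was higher and 6 genes were lower, CBLL1 among them with the catalytic subunit METTL3 (-0.72) and the adaptor WTAP (-0.40). BCAP31, the paralog of BCAP29, was higher in A498 by 0.20, while BCAP29 was lower. The values in these lists are log2 differences from the same limma fit, in which 80.5% of all tested genes passed.

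The genes whose log2 levels followed those of NAMPT most closely over the 8 libraries were PSCA (Pearson's r 0.9998), UFSP2 (0.9998) and DHRS4-AS1 (0.9997). The points form 1 cluster per cell line, so that these values describe the difference between the lines and carry no test. UFSP2, for example, was at 9.52 to 10.2 FPKM in A498 and 2.22 to 2.47 FPKM in 786-O. For DLD the closest genes were SPAG5 (0.9844), PALS1 (0.9759) and EAF1 (0.9725), all with their lowest value of each line in the siRNA #1 library. DLD is itself lowest there, and the genes were picked for following it over these same libraries. The shared low values therefore come with the selection and carry no test.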

How the data were processed

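Gene levels were measured by RNA-seq in 8 libraries (single-end, 36 bases). The authors mapped the reads to hg19 and deposited FPKM values from Cufflinks for RefSeq transcripts, GENCODE lncRNA genes and assembled lncRNAs, each library on its own. The submitters' processing notes list TopHat2 2.0.0 and Cufflinks 2.0.2, and no scaling between libraries is stated. Each table holds 75378 entries, and 96.6% of the 43150 RefSeq entries were matched to symbols in a RefSeq table of GRCh38, used for names only. FPKM values were summed per symbol. Depth and read numbers were recovered from the Cufflinks intervals, which serves only entries that share no reads, and cover counting error only.

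Genes with a mean of at least 1 FPKM were tested on log2(FPKM + 0.1), a scale that understates changes of low genes, with limma 3.58.1 in R 4.3.3 (variance trend, two-sided, Benjamini-Hochberg, threshold 0.05), within each line, over both lines with line as covariate, as an interaction, and between lines with knockdown as covariate. The siRNAs were the samples of the knockdown. The fits were tested on simulated data. The members and lists were chosen with earlier results of these data known. Named were all members, SLINKY, PIK3CG, tested genes within 2 Mb, partner genes that passed a test or are compared with a member, and the 3 genes most correlated with the member differing most between lines and with the member changing most on knockdown. The entries of COG5, HBP1 and CBLL1 and the levels of QPRT and UFSP2 were picked after their values were seen. Alternatives were the pseudocount, filter, scaling, highest entry, short genes, variance trend, replicate block, omitted libraries and, added after the data were seen, a term for each siRNA and SLINKY without the 786-O siRNA #1 library. Python 3.11.15, pandas 2.3.3, scipy 1.17.1 and matplotlib 3.10.9 were used. The other experiments of the study were not analysed here, and the sequence upstream of SLINKY is not reported here.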

Additional observations from a re-analysis of the deposited data

Results flagged for a closer look

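In each line, the lowest or highest library of every neighbour was compared with the rest of the 4 libraries by Dixon's gap, in 20 groups (10 genes in 2 lines). The test flags about 1 in 20 groups by chance, and 2 were flagged. DLD was lowest in the 786-O siRNA #1 library, at 26.5 FPKM, with a gap to the next library of 0.879 of the range of the line, above the critical value of Dixon's test at a 95% level. CBLL1 was lowest in the first A498 NTC library, at 6.85 FPKM, with a gap of 0.838 of the range, above the same critical value. Without that library the difference of CBLL1 between the lines missed the threshold of limma's test.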

How the results depend on the processing

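The 6 differences between the lines that passed kept their direction under every alternative, and 0 of 9 neighbours passed for knockdown under any of them. Calls between the lines changed as follows. With the highest entry of each gene, COG5 was lost (-0.30, adjusted p 0.554) and DUS4L gained (-0.30, adjusted p 0.034). CBLL1 was lost in the NTC libraries alone (-0.14, adjusted p 0.246), in the knockdown libraries alone (-0.25, adjusted p 0.062) and without the first A498 NTC or the A498 siRNA #1 library, and DUS4L was gained without the second A498 NTC library (-0.21, adjusted p 0.00763). With the replicate block (NTC 1 paired with siRNA #1, NTC 2 with siRNA #2) DLD was gained (0.27, adjusted p from limma 0.0489), and the block changed no other call of a neighbour. Deviations of same-numbered libraries correlated at -0.00479 in A498 and 0.00636 in 786-O over 11367 genes. The number of a knockdown library is also its siRNA, so these values cannot show whether same-numbered libraries shared a culture or run. The number of all tested genes called for knockdown moved more. From 20 in A498 it went to 11 with a pseudocount of 1, 0 without the filter, 3 without genes spanning under 200 bp, 0 with the replicate block and 13 in one fit over all libraries. From 16 in 786-O it went to 5 without the filter, 0 without the short genes, 4 with the replicate block and 9 in one fit over all libraries, and over both lines from 1 to 0 without the short genes. The interaction went from 16 to 7 with a pseudocount of 0.01, 27 without the filter and 1 without the short genes. The causes were not tested. Leaving out 1 library gave 48 to 61 calls in A498, 29 to 41 in 786-O, 1 to 3 over both lines, 28 to 38 in the interaction and 8819 to 8993 between the lines, and 1 to 1 and 0 to 1 neighbours past a log2 ratio of 0.32 for siRNA #1 in 786-O and A498. A lone library left in an arm is assumed there to vary like the others. Signs changed only in log2 values that had not passed. With the highest entry these were, for knockdown, DUS4L in A498 (-0.26), 786-O (-0.017) and both (-0.14), COG5 in 786-O (-0.91) and both (-0.12), HBP1 (-0.041) and BCAP29 (-0.033) in 786-O. With median-ratio scaling it was SYPL1 in 786-O (-0.0033), and in the knockdown libraries alone SYPL1 between the lines (0.026). Leaving out 1 library gave, for knockdown in A498, CBLL1 -0.023 to 0.16, DLD -0.29 to 0.17, DUS4L -0.13 to 0.20 and NAMPT -0.017 to 0.14; in 786-O, BCAP29 -0.035 to 0.060, CCDC71L -0.038 to 0.091, COG5 -0.031 to 0.078, DLD -0.53 to 0.047, HBP1 -0.038 to 0.055, NAMPT -0.13 to 0.078 and SYPL1 -0.050 to 0.059; over both lines, CCDC71L -0.052 to 0.0069, DUS4L -0.029 to 0.10 and NAMPT -0.024 to 0.067; in the interaction, BCAP29 -0.0029 to 0.15, COG5 -0.012 to 0.097, DLD -0.11 to 0.46, DUS4L -0.17 to 0.16 and NAMPT -0.018 to 0.19; and between the lines, SYPL1 -0.074 to 0.013. Depth limits PRKAR2B, read from 24 to 148 reads per library. Apart from depth, the Cufflinks interval of CCDC71L, an entry with the status LOWDATA, reached 0 in all 8 libraries.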
